A study of Catharus ustulatus with 19 samples.

Results

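The genes described here are the 77 of 11727 genes whose expression in every female brain exceeded that in every male brain. They were chosen by the expression values themselves: a gene was taken when its lowest value among the 3 females lay above its highest value among the 16 males. That choice fixes the direction and the separation of the sexes, so the sex difference is given as a description with no test. Expression was measured by RNA sequencing of a piece of brain with the hypothalamus and the optic chiasma from 19 Swainson's thrushes (Catharus ustulatus), a songbird that migrates at night. All birds had been held in captivity for more than a year under conditions that were constant apart from a day length that followed the season. The females were 1 migratory coastal bird and 2 non-migratory coastal birds. The males were 5 migratory inland, 4 non-migratory inland, 3 migratory coastal and 4 non-migratory coastal birds, where inland and coastal are ecotypes of the species.

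Each bird is a separate animal, collected in August or October 2011. The females and males were not matched for time of day or date: the migratory female was taken 8.57 hours after lights on and the non-migratory females at 2.65 and 7.55 hours, while the males ranged from 2.5 to 7.65 hours. Of the females, 1 was collected on 8 August, with 4 males, and the other two on 4 October, with 3 males. The other 9 males came from 7 August and 3 October, when no female was taken. No female is inland, so sex can be read only against the 7 coastal males without crossing ecotypes. The labels give no ages.

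In birds the female is the heterogametic sex, with a Z and a W chromosome, and the male has a pair of Z chromosomes. Genes of the W chromosome are therefore read only in females, and many of them have a related copy on the Z chromosome. Songbird hypothalamus also makes aromatase and steroid receptors, through which sex hormones act on reproduction, feeding and seasonal timing. A gene carried on the W alone would stand near the bottom of the table in all males, provided that no reads from a related copy were assigned to it. Levels in males therefore cannot decide by themselves whether a gene lies on the W. The deposited genes carry ENSFALG identifiers with no names, in the Ensembl style of another species, the collared flycatcher. None of all 11727 identifiers matched the RefSeq genes supplied for the thrush, so the lack of a match says nothing about the 77. Their names, functions, chromosomes and sequences are therefore not given, and the tissue could not be checked against marker genes. Identifiers are given for a few genes and the others are called by their rank, from 1 for the widest gap between lowest female and highest male to 77 for the narrowest.

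Most of the 77 genes differed little in level between the sexes, and a few differed 2-fold or more. Values are on a log scale read as log2, on which a difference of 1 is 2-fold. Female means exceeded male means by a median of 0.30 log2 (1.24-fold), with quartiles at 0.24 and 0.48 and a range of 0.12 to 1.55. The difference was at least 1 log2 in 5 genes, between 0.5 and 1 in 14, between 0.25 and 0.5 in 37 and below 0.25 in 21. Across all 11727 genes the median difference was 0.019 log2.

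The genes with the widest gaps stood well apart in all 3 females. ENSFALG00000008864 had 27.11 log2 in the migratory female and 27.38 and 27.49 in the non-migratory females, against a lowest, median and highest male of 25.34, 25.81 and 26.28. The sexes were thus 0.836 log2 apart at their closest, against an SD among males of 0.27. Its mean was 27.33 ± 0.19 log2 in females (SD, n = 3) and 25.84 ± 0.27 in males (SD, n = 16), a difference of 1.49 log2 or 2.80-fold.

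ENSFALG00000014137 had the largest difference of means among the 77, at 1.55 log2 or 2.94-fold. It stood at 27.76 log2 in the migratory female and at 27.85 and 28.26 in the non-migratory females, against 25.75, 26.41 and 27.08 in the lowest, median and highest male. The 2 highest males of this gene were coastal, and inland males averaged 26.18 ± 0.35 log2 (SD, n = 9) and coastal males 26.69 ± 0.27 (SD, n = 7). Against the coastal males alone its difference was 1.27 log2, whereas that of ENSFALG00000008864 was 1.52. Within migratory coastal birds (1 female, 3 males) ENSFALG00000014137 differed by 1.02 log2, and within non-migratory coastal birds (2 females, 4 males) by 1.40. In the same sets ENSFALG00000008864 differed by 1.20 and 1.71 log2.

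The gene of rank 3 had 26.90 log2 in the migratory female and 27.05 and 27.01 in the non-migratory females, against 25.36, 25.94 and 26.38 in the lowest, median and highest male. Its females lay close together, with an SD of 0.08 log2. The gene of rank 8 differed by 1.13 log2 but had a gap of only 0.198, because males ranged widely (SD 0.49, n = 16).

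**Figure D1:**
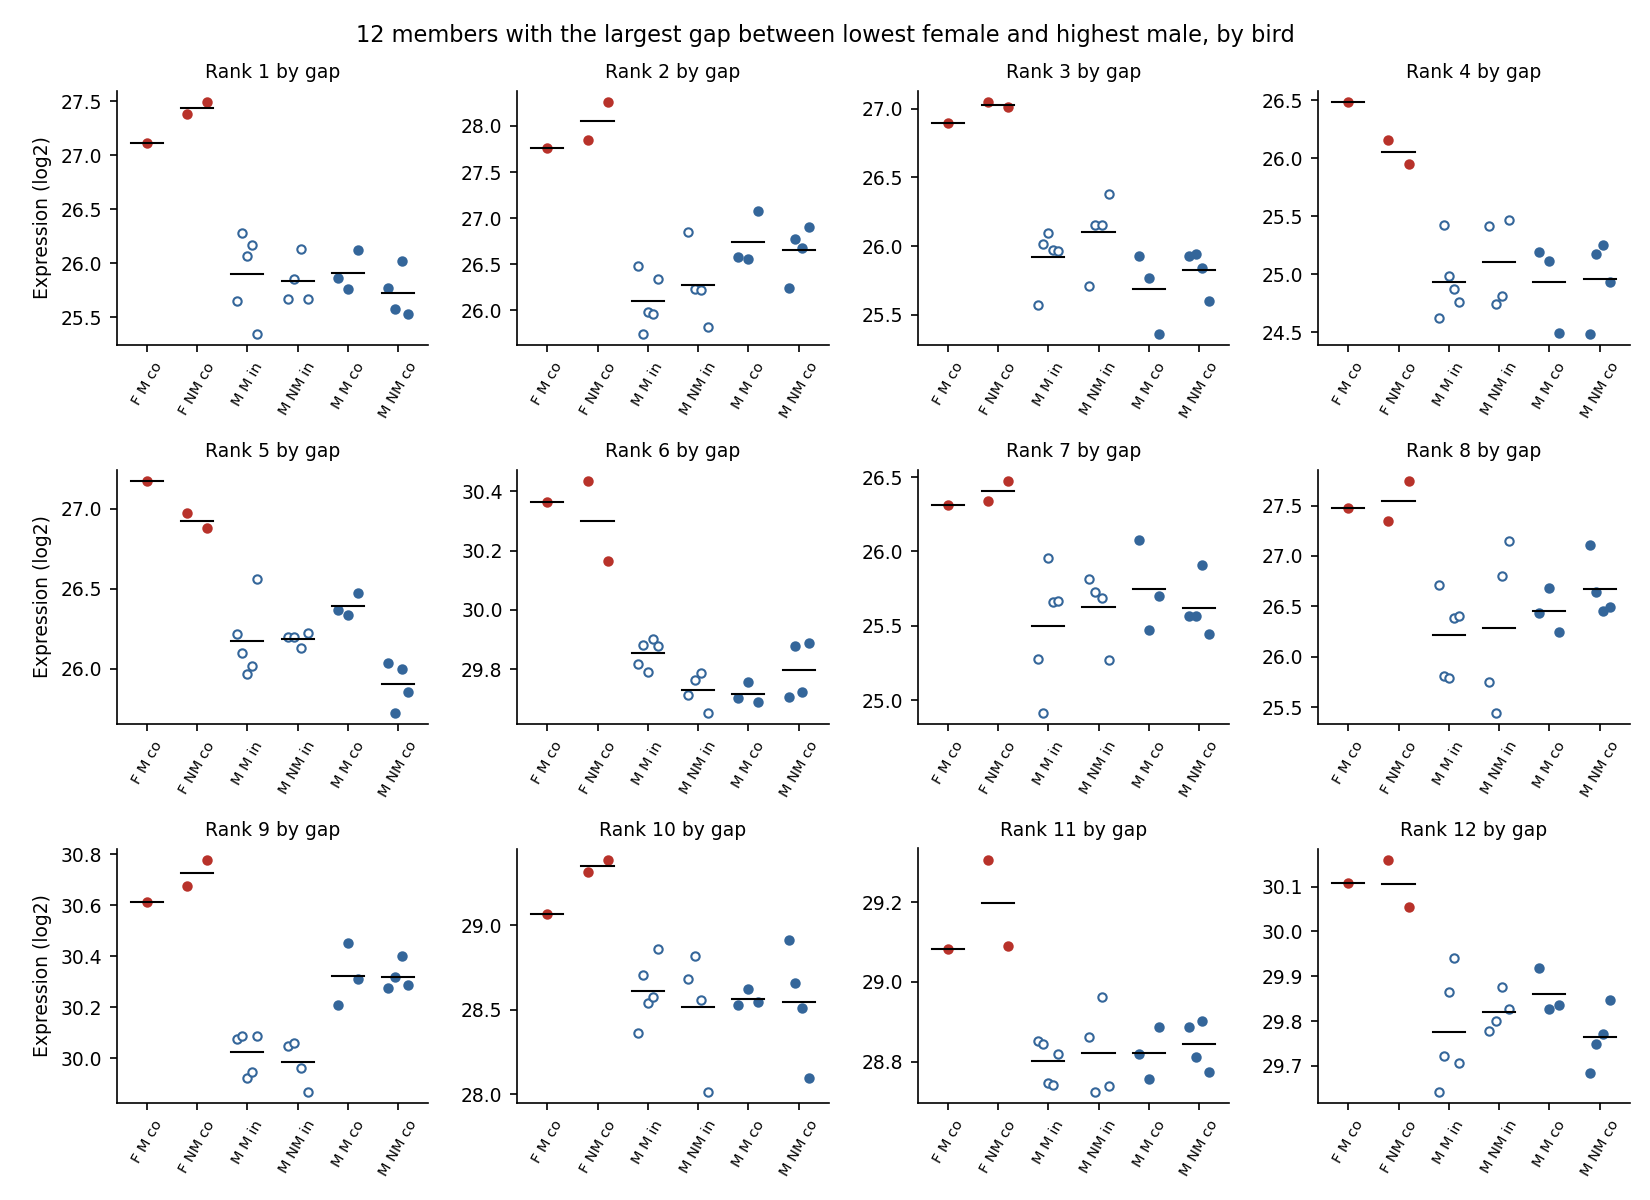
Expression (log2) of the 12 genes with the widest gap, by bird: F, female; M first, male; then M, migratory, or NM, non-migratory; in, inland (open circles); co, coastal. Red points are females, blue points are males and lines are group means; the 3 females lie above the 16 males in each panel, by 0.836 log2 in the first.

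Behind these genes the separation narrowed quickly. The gap was at least 0.5 log2 in 3 genes, at least 0.2 in 7 and at least 0.1 in 15, and it was below 0.05 in 42. It exceeded the SD among males in 11 genes. A share of 0.657% of all genes met the rule. A limma model over all 19 birds, with means for the status and ecotype groups and a sex term, called 66 genes higher in females (0.563% of those tested). Of these, 27 met the rule and 39 did not. Only 27 of the 77 genes that met the rule were thus called, and the rest were not. The rule chose the 77 genes on the same values, so these calls do not test their sex difference. No female is inland, so the sex term compares females with coastal males only, whereas the rule uses all males. The last genes inside the limit had gaps of 0.00113, 0.00114 and 0.00144 log2. The first outside had -0.000426, -0.00153 and -0.00168. Another 5 genes were tied at 0, of which 2 had a single value in all 19 birds.

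In none of the 77 genes were all 16 males near the floor of the table, though in 2 genes the median male was in the lowest 5%. The lowest value of a bird lay between 20.38 and 22.17 log2, 5% of genes lay below about 25.3 and 25% below 26.86. The lowest value of any male in any of the 77 genes was 24.43. In no gene did all males fall into the lowest 5% of their own genes; the highest male stood at percentile 6.69 or above in each. Whether the annotation behind the table holds genes of the W chromosome is not known here. Reads from related Z copies could also raise the values of males, so W linkage was not tested by these levels. In 59 of the 77 genes every male was above the lowest 25%.

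By the median male, 2 genes stood near the floor (the lowest 5% of the genes of a bird), 12 were low (5 to 25%) and 63 were clearly expressed (above 25%). The first of the genes near the floor, of rank 4, had 26.49 log2 in the migratory female and 26.16 and 25.95 in the non-migratory females, against 24.49, 24.96 and 25.47 in the lowest, median and highest male. Its males lay between percentiles 0.87 and 6.69, and its female mean was 1.21 log2 (2.32-fold) above the male mean. The other, of rank 59, had 25.93 log2 in the migratory female and 25.61 and 25.57 in the non-migratory females, against 24.43, 24.91 and 25.56 in the lowest, median and highest male. Its gap was only 0.0108 log2, and its highest male stood at percentile 7.53. Both were low in females too, with the median female at percentile 14.3 in rank 4 and 8.03 in rank 59.

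The 12 low genes included those with the largest differences. Their median difference was 0.71 log2 (range 0.30 to 1.55), and 8 of the 12 differed by at least 0.5. In 7 of them the median female was above the lowest 25% of genes, while the median male was not; ENSFALG00000008864 stood at percentile 35.0 in the median female and 10.1 in the median male. The spread among males was also widest at low levels: the median SD over genes was 0.33 log2 where males were near the floor, 0.26 where they were low and 0.11 where they were clearly expressed. Sequencing depth is unknown, so counting error could not be set beside these values.

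In the 63 clearly expressed genes the median difference was 0.28 log2, the range 0.12 to 0.94, and 9 differed by at least 0.5. Of all 77 genes, 42 were above the 50th percentile in the median male, 26 above the 75th and 11 above the 90th. Percentiles are ranks within a bird, so 50%, 25% and 10% of all genes lie above these marks by definition. The gene of rank 6 had the widest gap among the 63. It stood at 30.36 log2 in the migratory female and at 30.43 and 30.17 in the non-migratory females, against 29.65, 29.77 and 29.90 in the lowest, median and highest male. Its males varied by an SD of only 0.08 log2 (n = 16), against a difference of 0.54. The gene of rank 10 differed by 0.70 log2, with 29.07 in the migratory female and 29.32 and 29.39 in the non-migratory females, against 28.01, 28.57 and 28.91 in the lowest, median and highest male.

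The genes lower in all females, chosen by the mirror image of the rule, numbered 337. Their median difference was -0.79 log2 with quartiles of -0.95 and -0.60, and 287 of the 337 (85.2%) lay below -0.5, while 19 of the 77 (24.7%) lay above 0.5. The median male percentile was 55.4 over the 77 genes and 49.6 over the 337. By the median male, 11 of the 337 were near the floor, 61 were low and 265 were clearly expressed. These figures describe lists chosen in the same birds and were not tested against each other.

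**Figure D2:**
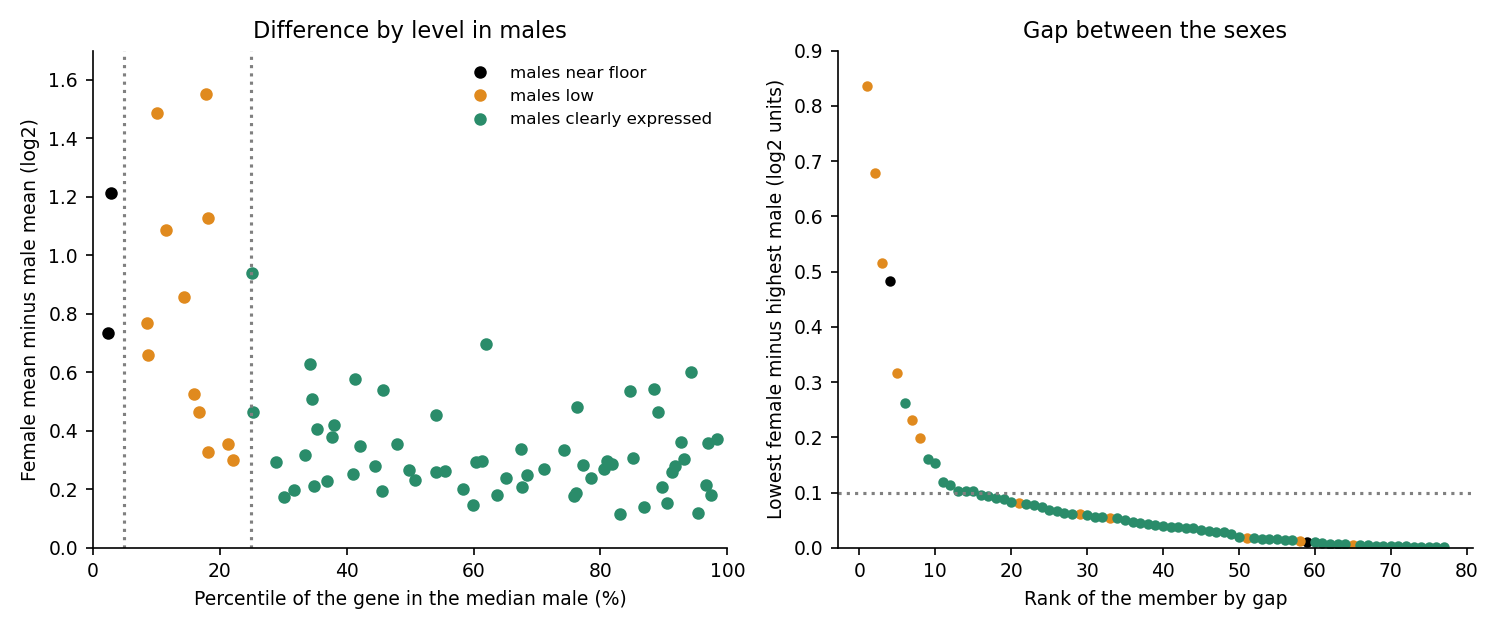
Left, female mean minus male mean (log2) of the 77 genes against the percentile of the gene in the median male (%), with dotted lines at 5% and 25%; right, the gap between lowest female and highest male (log2) by rank, with a dotted line at 0.1. The 5 differences of at least 1 log2 are all at or below 18.2% in males, and 15 genes lie at or above a gap of 0.1.

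The females varied little among themselves. The SD over the 3 females had a median of 0.064 log2 over the 77 genes, and that over the 16 males had a median of 0.133, against 0.146 and 0.187 over all genes. The rule favours genes in which both spreads are small, so these values carry no test. The migratory female was above both non-migratory females in 24 genes, between them in 24 and below both in 28, and tied in 1. Its median difference from the mean of the non-migratory females was -0.002 log2. With 1 migratory female, status in females has no replicate check.

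The median difference between the sexes was close in size in each subset of birds that holds both. The subsets reuse values that chose the genes, so this is a description and no separate check. The median over the 77 genes was 0.293 log2 against the 7 coastal males. It was 0.308 within migratory coastal birds (1 female, 3 males) and 0.293 within non-migratory coastal birds (2 females, 4 males). Within single days it was 0.263 on 8 August (1 female, 4 males) and 0.304 on 4 October (2 females, 3 males). The males of both days include inland birds, so these sets cross ecotypes. On 4 October all males were migratory while the females were of both statuses. Hours after lights on did not overlap between the sexes on either day. On 8 August the female (2.65 hours) was taken before all 4 males (3.03 to 5.2). On 4 October the females (7.55 and 8.57 hours) were taken after all 3 males (2.52 to 6.03). In each subset all 77 differences were positive, which the rule itself ensures.

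**Figure D3:**
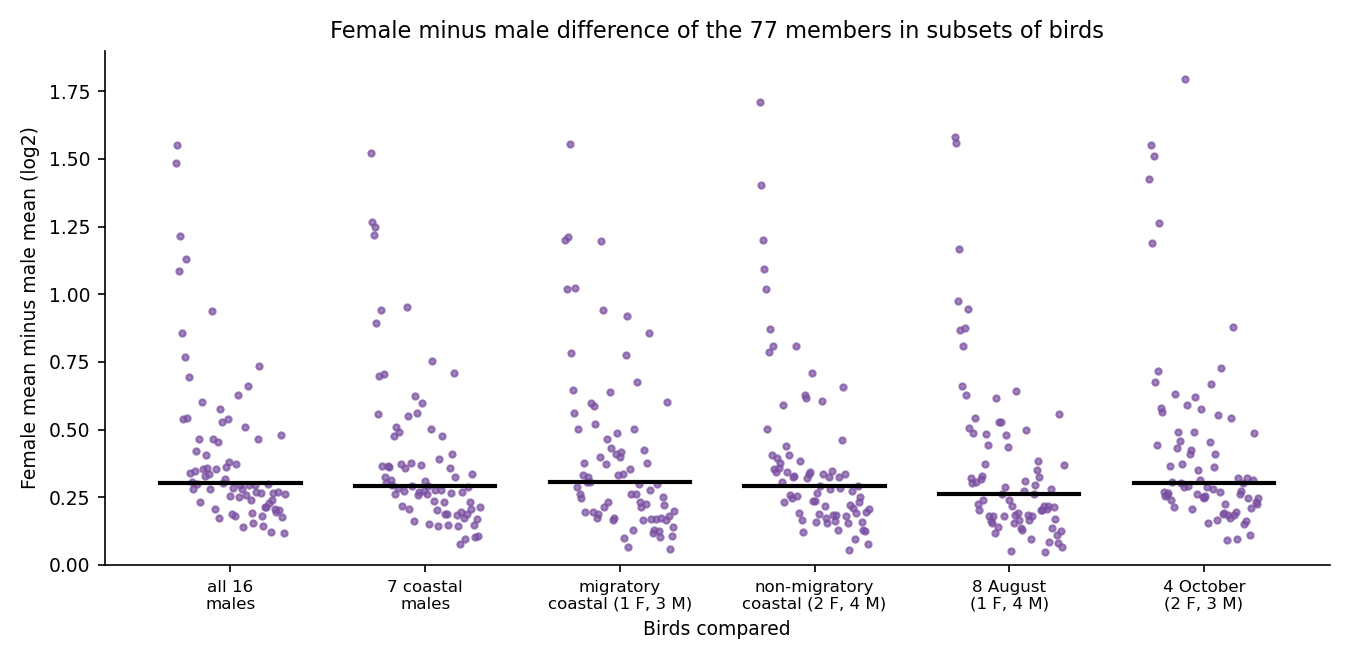
Female mean minus male mean (log2) of each of the 77 genes (points) in 6 sets of birds, with the median as a line; F, females; M, males. The medians lie between 0.263 and 0.308 log2.

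Some genes depended more on which males were used. In 2 of the 77 genes the difference from coastal males was under 0.5 times the difference from all males. The clearer was ENSFALG00000011570, of rank 74, whose females stood at 29.73 log2 (migratory) and 29.83 and 29.75 (non-migratory). Its inland males ranged from 28.55 to 29.27 log2 and its coastal males from 29.60 to 29.73. The female mean was 0.48 log2 above all males but only 0.10 above coastal males.

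The next question was how the 77 genes behaved among males, whose order among themselves was not used by the rule. The rule does cap the highest male and so favours genes with little spread among males. The shares of narrow intervals below are therefore shaped by it, and the shares of calls and of small p-values may be too. Because all females are coastal, it may also shape the direction of the ecotype differences. Migratory and non-migratory males were compared as the mean of the inland and coastal differences, in a limma fit across all 11727 genes. None of the 77 genes was called at an adjusted p under 0.05, as none was over all genes (0%). At an unadjusted p under 0.05 there were 7 of the 77 (9.1%; 2 higher and 5 lower in migratory males), beside 1071 of all genes (9.1%). The median difference was -0.022 log2 over the 77 genes and 0.006 over all genes. The 95% interval lay within ± 0.5 log2 for 70 of the 77 genes (90.9%), beside 84.4% of all genes. All 8 non-migratory males were collected in August and 7 of the 8 migratory males in October, so status and month can hardly be told apart. A status estimate with the month added rests on the only migratory male taken in August. With the month added to the fit, the interval lay within ± 0.5 log2 for 45 of the 77 genes (58.4%), beside 41.9% of all genes.

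The smallest p among the 77 for status belonged to ENSFALG00000011973, a highly expressed gene of rank 19. It stood at 30.47 ± 0.28 log2 in migratory inland (SD, n = 5) and 30.98 ± 0.29 in non-migratory inland males (SD, n = 4). In coastal males it stood at 30.77 ± 0.12 in migratory (SD, n = 3) and 30.93 ± 0.03 in non-migratory birds (SD, n = 4). The difference over both ecotypes was -0.33 ± 0.10 log2 (SE, limma adjusted p = 0.34), which did not pass the threshold. With the month added it was -0.56 log2, an estimate that rests on the only migratory male taken in August. The females were at 31.37 log2 (migratory) and 31.35 and 31.39 (non-migratory), close together and above the highest male at 31.26.

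Among males, ecotype gave the only calls within the 77 genes. Of the 77 genes, 4 (5.2%) differed between inland and coastal males with limma, all 4 lower in inland males, beside 723 of all genes (6.17%; 331 higher and 392 lower in inland males). A share of 5.2% is near that background. At an unadjusted p under 0.05 there were 15 of the 77 (19.5%) and 21.7% of all genes, and the medians were -0.012 log2 over the 77 and 0 over all genes. All 4 were clearly expressed in males.

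ENSFALG00000011570 had the smallest p for ecotype. It averaged 29.00 ± 0.23 log2 in inland males (SD, n = 9) and 29.67 ± 0.04 in coastal males (SD, n = 7). All 9 inland males lay below all 7 coastal males, and the difference was -0.67 ± 0.09 log2 (SE, limma adjusted p = 0.00038). ENSFALG00000010645, of rank 9, averaged 30.01 ± 0.08 log2 in inland males (SD, n = 9) and 30.32 ± 0.08 in coastal males (SD, n = 7). It differed by -0.32 ± 0.05 log2 (SE, limma adjusted p = 0.00086), again with no overlap of inland (29.87 to 30.09) and coastal males (30.21 to 30.45). Its females were at 30.61 log2 (migratory) and 30.67 and 30.78 (non-migratory). That they stood above the coastal males was set by the rule and is no result. Both genes were called in every alternative fit run. The genes of rank 23 and 63 differed by -0.25 ± 0.05 and -0.24 ± 0.06 log2 (SE, limma adjusted p = 0.0049 and 0.040).

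**Figure D4:**
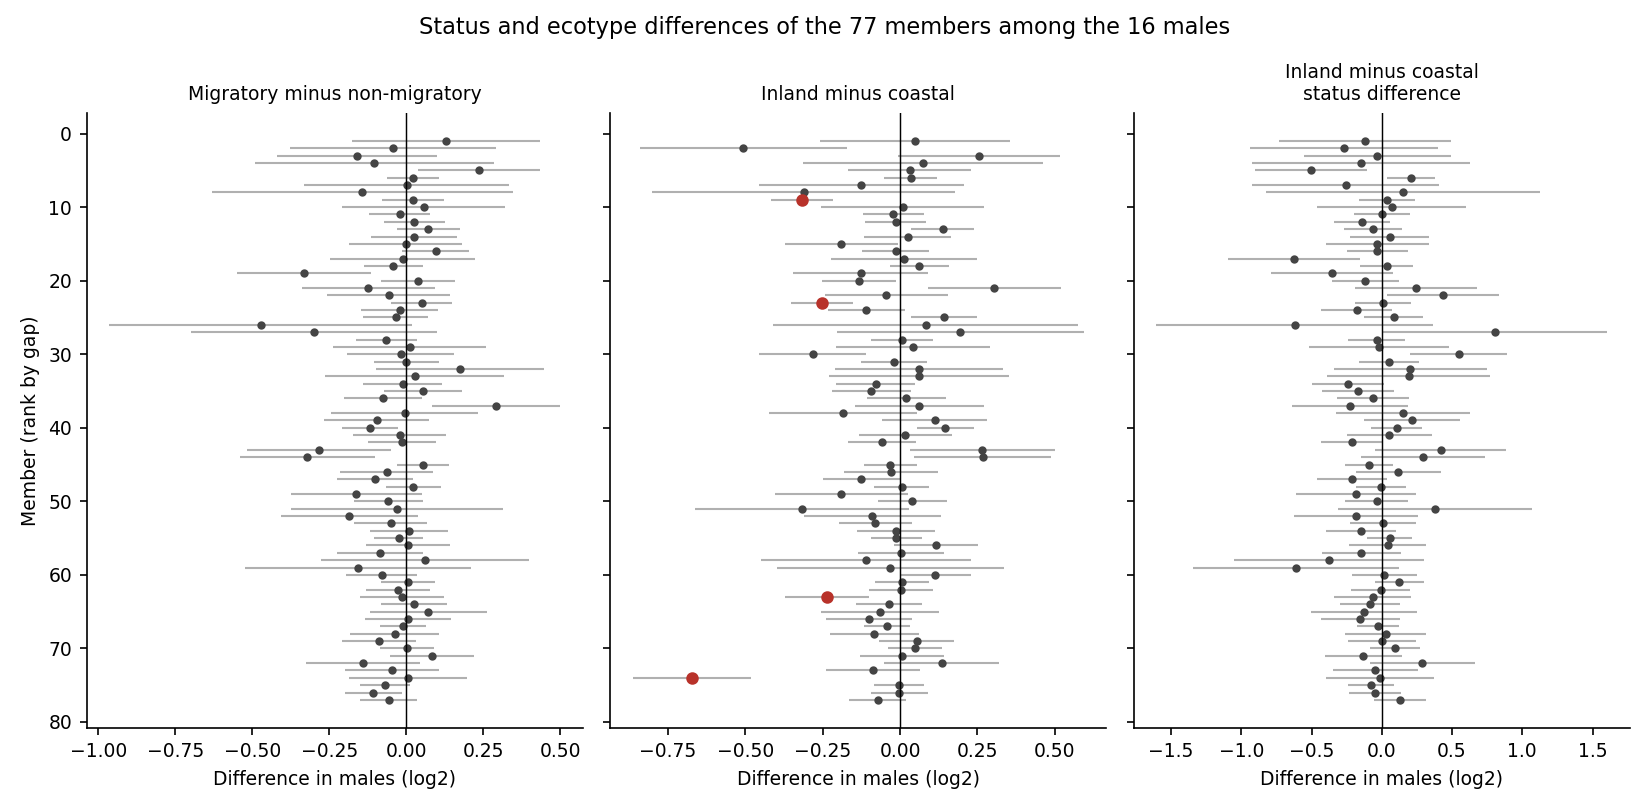
Difference among the 16 males (log2) for each of the 77 genes by rank of gap: migratory minus non-migratory (left), inland minus coastal (middle) and the inland minus the coastal status difference (right); points are limma estimates, lines 95% intervals and red points are calls at an adjusted p under 0.05. The 4 red points, all for ecotype, lie between -0.67 and -0.24 log2.

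The status difference was also compared between the ecotypes. None of the 77 genes was called, as none was over all genes (0%), and 6 of the 77 (7.8%) had an unadjusted p under 0.05 beside 12% of all genes. The smallest p belonged to ENSFALG00000007776, of rank 30. It stood at 28.19 ± 0.20 log2 in migratory inland (SD, n = 5) and 27.93 ± 0.18 in non-migratory inland males (SD, n = 4), against 28.20 ± 0.14 in migratory coastal (SD, n = 3) and 28.49 ± 0.11 in non-migratory coastal males (SD, n = 4). The status differences were 0.55 ± 0.16 log2 apart (SE, limma adjusted p = 0.24). The interval was within ± 0.5 log2 for only 47 of the 77 genes (61%), beside 43.8% of all genes. This comparison is a difference between differences, so its intervals are wider by construction than those for status or ecotype in the same fit.

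A slope on the time of day was fitted in males because the females' hours were late in 2 of 3 birds. None of the 77 genes was called, beside 3 of all genes (0.0256%), and 5 of the 77 (6.5%) had an unadjusted p under 0.05 beside 11.3% of all genes. ENSFALG00000006059, of rank 43, had the smallest p, with -0.09 ± 0.03 log2 per hour (SE, limma adjusted p = 0.20). The slopes of ENSFALG00000008864 and ENSFALG00000014137 were -0.02 ± 0.04 and 0.03 ± 0.05 log2 per hour (SE). The migratory female, at 8.57 hours, lay outside the males' range of 2.5 to 7.65 hours. The coastal males ranged from 2.5 to 7.07 hours, so the non-migratory female at 7.55 hours was also later than all of them. The part of the hour in the sex difference was not tested.

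The 2 genes with the widest gaps showed no called status or ecotype difference. In ENSFALG00000008864 males averaged 25.90 ± 0.39 log2 in migratory inland (SD, n = 5), 25.83 ± 0.22 in non-migratory inland (SD, n = 4), 25.91 ± 0.19 in migratory coastal (SD, n = 3) and 25.72 ± 0.23 in non-migratory coastal birds (SD, n = 4). The groups overlapped, with differences of 0.13 ± 0.14 log2 for status and 0.05 ± 0.14 for ecotype (SE). In ENSFALG00000014137 they averaged 26.10 ± 0.30 log2 in migratory inland (SD, n = 5), 26.28 ± 0.42 in non-migratory inland (SD, n = 4), 26.74 ± 0.29 in migratory coastal (SD, n = 3) and 26.65 ± 0.29 in non-migratory coastal birds (SD, n = 4). Its ecotype difference was -0.51 ± 0.16 log2 (SE, limma adjusted p = 0.069), and its status difference -0.04 ± 0.16.

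Which male limited the gap was spread over all 16. The highest male was inland in 41 genes and coastal in 36, with 9 and 7 males in these ecotypes. It was migratory in 29 genes and non-migratory in 48, with 8 males in each status. The same shares over all genes were not computed, so these counts are no result about the 77. Non-migratory inland replicate 3 was the highest male in 12 genes and non-migratory inland replicate 4 in 8, while migratory inland replicates 1 and 3 were highest in 1 gene each. Over the 77 genes the group means departed from the mean of all males by medians of -0.02 to 0.015 log2. These are medians of signed values, in which rises and falls cancel. For single genes the ecotype estimates ran from -0.672 to 0.305 log2 and the status estimates from -0.473 to 0.292.

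**Figure D5:**
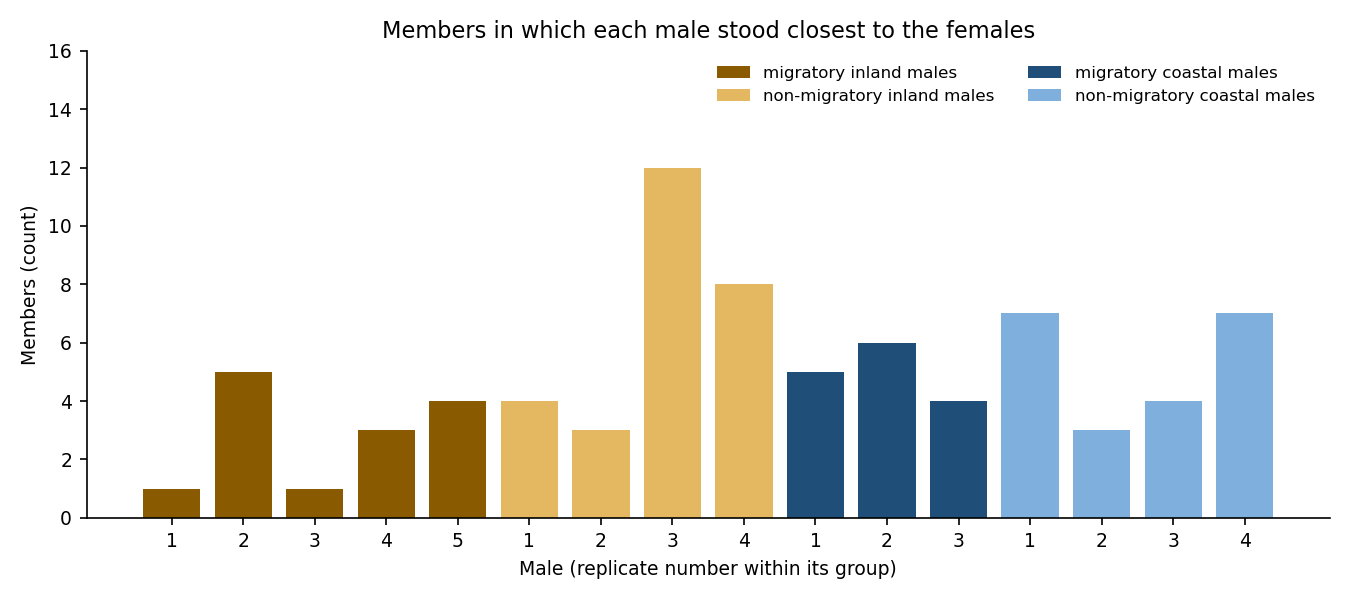
Number of the 77 genes in which each of the 16 males had the highest male value and so stood closest to the females, by group and replicate. Counts run from 1 to 12, with the highest bar in non-migratory inland replicate 3.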

How the data were processed

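The authors deposited 1 table of log2 values (the base is not stated and was read as 2) for 11727 protein-coding genes and 19 birds. The name of the deposited table gives exon-summed counts after TMM normalization. The name also ends in a tag that can be read as birds left out before deposit, which could not be checked. On the same values, further birds could only have shortened the list of genes that met the rule. Per the submitters' processing notes, Trim Galore 0.3.1, TopHat2 and HTSeq were used, in roles not stated; no build is given in the sources used here. The birds have nearly the same distribution of values, with a median of 28.05 and a 25th percentile of 26.86 log2 in both the lowest and the highest bird. Scaling each bird by 1 factor need not give this, and whether a further step was applied is not known here. Differences and folds therefore hold on the deposited scale only. A gene can be compared only relative to the others of its bird, and depth and counting error are unknown. The deposited column of averages was not used. Per the labels' protocols, libraries came from a TruSeq RNA kit, which does not mark strand.

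Percentiles are ranks within a bird. Male contrasts came from limma 3.58.1 in R 4.3.3 (means for 4 groups, trend and robust settings, two-sided, Benjamini-Hochberg over all genes, call at 0.05), tested on simulated data first. The sex fit used all 19 birds with a sex term. Identifiers are printed for the 2 widest gaps and, per male contrast, the smallest p-values (at most 2 in a direction; 1 where none was called). The list and rules were chosen with earlier results of these data known. Planned lists of named genes could not be tested, as 0 of 11727 identifiers matched the RefSeq table (assembly bCatUst1.pri.v2). Alternatives changed the birds, covariates, scaling, pseudocount, filter and thresholds.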

Additional observations from a re-analysis of the deposited data

How the results depend on the processing

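The number of genes that met the rule depended on the birds, the margin and the scaling. It was 291 with only the coastal males as the limit, 221 without the 2 birds whose status differed from most birds of their month, and 15 with a gap of at least 0.1 log2. Leaving out 1 bird gave 79 to 216: 139 without the migratory female, 216 and 215 without non-migratory females 1 and 2, and 79 to 88 without any 1 male. It was 52 with median-of-ratios rescaling, all 52 among the 77, and 73 with the lowest 10% of genes left out. Fewer birds can only add genes, so these counts are no measure of the size of the difference. The rescaling kept all birds, so the fall to 52 came from the scaling alone. The median difference of the 77 genes stayed between 0.263 and 0.317 log2, in values that the rule had used. The count of genes with males near the floor was 1 at the lowest 2.5%, 4 at the lowest 10%, 0 by the highest male, and 2 without any 1 male.

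Among males, the calls among the 77 genes were 0 for status, the status by ecotype term and hour in every fit run. For ecotype they were 3 to 5 leaving out 1 male and 3 to 6 otherwise. Over all genes, status gave 1 with the hour, the month or the day added and 0 to 1 leaving out 1 male, ecotype 414 (without migratory coastal male 2) to 848 leaving out 1 male and 634 (day added) to 963 (hour added) otherwise, the status by ecotype term 0 to 7 (7 without non-migratory inland male 1), and hour 11 with all 19 birds, 0 with the month added, 1 without trend and robust settings or with the day added and 0 to 9 leaving out 1 male. The cause was not tested. In males, adding the month amounts to leaving out migratory inland male 1 for ecotype and the interaction. The status estimate with the month added rests on that male. For males, leaving out the 2 birds out of step with their month is the same fit as leaving out that male. No paired analysis was run, because each bird is a separate animal and the labels give no pairs. The fit with the day of collection as a block was chosen after seeing the data.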
